A study of Danio rerio with 12 samples.

Results

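The noradrenergic core transcription factors described here are 7 genes, hand2, gata2a, gata3, phox2a, phox2bb, isl1 and tbx2b, taken by name from a table of 14581 zebrafish genes. All 7 were present, and all 7 passed the filter on low values. RNA was measured in tumour cells of MYC transgenic zebrafish with neuroblastoma (8 libraries, MYC 1 to 8) and of MYCN transgenic zebrafish with neuroblastoma (4 libraries, MYCN 1 to 4). In both groups the cells carried EGFP, a green fluorescent protein, and were sorted for it, so no library is of normal tissue or of unsorted tumour. The labels used here do not give the promoter of either transgene, the age of the fish, or whether libraries came from separate fish, so each p-value reflects only how far these libraries differ, which may be technical. In published zebrafish neuroblastoma models of this kind, the promoter of dbh, the dopamine beta-hydroxylase gene, drives both the oncogene and EGFP. Values are FPKM, fragments per kilobase of transcript, scaled to the mapped fragments of the library, so levels of different genes can be set side by side, and the depth in reads is unknown.

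Neuroblastoma arises from sympathoadrenal cells of the neural crest, which make noradrenaline. In mammals, HAND2, GATA2 and GATA3 are among the factors that specify these cells in the embryo. In human noradrenergic neuroblastoma cell lines HAND2, GATA3, ISL1 and TBX2 belong to what is described as a core regulatory circuit, a set of factors that bind each other's enhancers and keep one another expressed.

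The EGFP-positive cells carried transcripts of this lineage in both groups. If the dbh promoter drove EGFP here, as in the published models, the sort itself selected for dbh, which is then no independent mark. The gene dbh, whose enzyme makes noradrenaline from dopamine, ranged from 917 to 2632 FPKM in MYC libraries and from 1753 to 3237 FPKM in MYCN libraries. The gene th, for tyrosine hydroxylase, which starts catecholamine synthesis, ranged from 281 to 807 FPKM in MYC and from 434 to 859 FPKM in MYCN. Libraries MYC 5 to 8 stood apart from MYC 1 to 4 in how many genes were listed at 0. Of 8608 genes that reached 5 FPKM somewhere, 69 to 105 were at 0 in each library of MYC 5 to 8, 30 to 43 in each of MYC 1 to 4 and 46 to 93 in each MYCN library. Results are therefore also given against each of these MYC sets. Summed FPKM ranged from 567331 to 1058303 in MYC and from 609892 to 866900 in MYCN libraries.

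Of the 7 core factors, 4 fell in MYC cells relative to MYCN cells (isl1, phox2bb, hand2 and gata2a), none rose, and 3 did not pass (phox2a, gata3 and tbx2b). The test was limma on log2(FPKM + 1) over 9606 genes (Benjamini-Hochberg, threshold 0.05). Over all genes tested 7.63% fell and 5.77% rose after adjustment, and 13.4% changed in either direction. At an unadjusted p under 0.05 the counts were 5 lower and 0 higher. At that threshold 28.6% of all genes tested passed in either direction. This is the share to set beside the unadjusted MYC against MYCN counts here and below. The median log2 fold change was -1.01 for the 7 factors and -0.05 for all genes tested. The count of 4 was 1 without MYCN 1 or without MYCN 2, where only isl1 remained called, and 2 without MYCN 4, against MYC 1 to 4 alone or against MYC 5 to 8 alone. With MYC 1 to 4 and MYCN 1 to 4 paired by replicate number the count was also 4, but phox2a passed (adjusted p = 0.0266) and gata2a did not (0.0502). In bulk RNA of sorted cells, fewer cells that express a gene and less of its RNA per cell cannot be told apart.

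**Figure D1:**
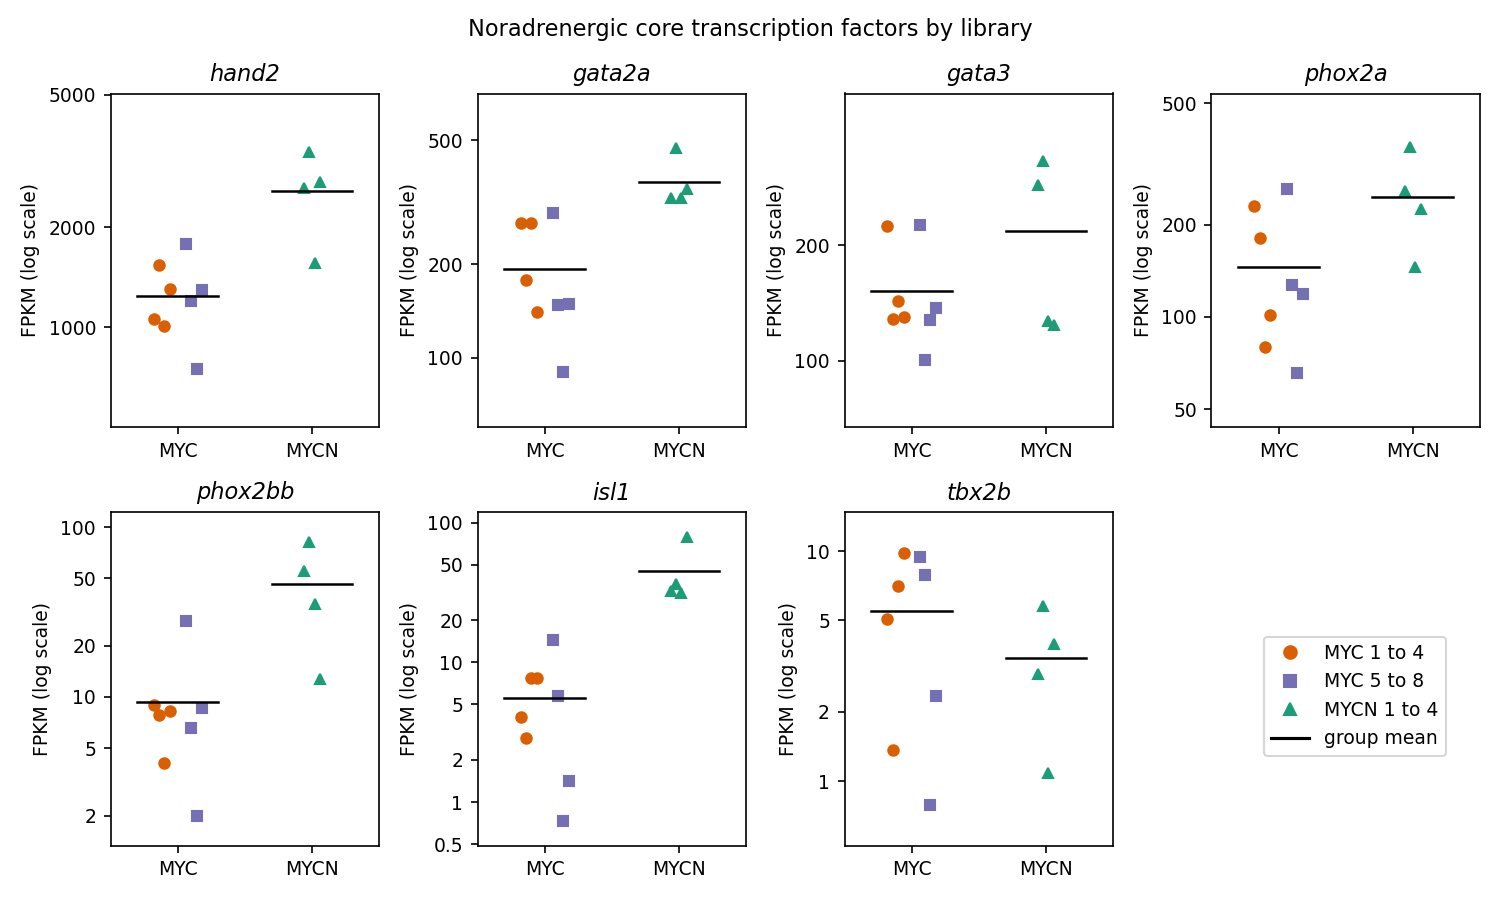
FPKM (log axis) of each core factor in each library, with MYC on the left and MYCN on the right of each panel, and horizontal lines at the arithmetic group means. The MYC points of isl1 and gata2a lie below all MYCN points, while those of tbx2b reach above them.

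The gene isl1 encodes a LIM homeodomain factor of sympathetic, sensory and motor neurons, and it had the largest difference of the 7. It had 0.730, 4.91 and 14.5 FPKM as lowest, median and highest value in MYC libraries, against 32.2, 36.3, 31.2 and 79.5 FPKM in MYCN 1, 2, 3 and 4. Every MYC library lay below every MYCN library, as did 5.6% of all genes tested, and 3.73% had every MYC library above every MYCN library. The means were 5.60 ± 4.46 FPKM in MYC (SD, n = 8) and 44.8 ± 23.2 FPKM in MYCN (SD, n = 4), so the MYCN mean was 8.0 times the MYC mean. Its log2 fold change was -2.99 ± 0.50 (SE, limma, adjusted p = 0.00176), rank 194 of the 9606 genes by p. It was called in all 12 fits that left out 1 library (-3.21 to -2.68, adjusted p = 0.000776 to 0.0117), with MYC 1 to 4 alone (-2.77, adjusted p = 0.00190) and with MYC 5 to 8 alone (-3.21, adjusted p = 0.0119).

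The place of isl1 among all genes of a library moved with the genotype. It lay between the 38.2nd and the 66.0th percentile of the table in MYC libraries and between the 79.6th and the 91.8th in MYCN libraries. Within MYC the lowest values were in MYC 7 (0.730 FPKM) and MYC 8 (1.42 FPKM) and the highest in MYC 5 (14.5 FPKM), a 19.9-fold range. In MYCN the range was 2.54-fold, with MYCN 4 apart from the other 3.

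Both phox2a and phox2bb encode paired-type homeodomain factors of the autonomic nervous system. Levels of phox2bb were 2.00, 8.04 and 27.8 FPKM (lowest, median and highest) in MYC, against 55.4, 81.8, 35.1 and 12.8 FPKM in MYCN 1, 2, 3 and 4. The groups overlapped through MYC 5, at 27.8 FPKM, and MYCN 4, at 12.8 FPKM, and the other 7 MYC libraries were below all MYCN libraries. The log2 fold change of phox2bb was -2.21 ± 0.53 (SE, limma, adjusted p = 0.0140), a call lost when MYCN 1 (adjusted p = 0.0536) or MYCN 2 (0.0616) was left out and against MYC 5 to 8 alone (-2.13, adjusted p = 0.0836).

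Its paralogue phox2a was the more abundant gene in all 12 libraries. It had 65.4, 123 and 262 FPKM (lowest, median and highest) in MYC, against 259, 359, 146 and 226 FPKM in MYCN 1, 2, 3 and 4. Of the MYC libraries, 5 lay below the lowest MYCN library and none above the highest. The log2 fold change of -0.84 ± 0.36 did not pass (limma, adjusted p = 0.146). With replicates 1 to 4 of both groups paired by number (a block) it was -0.79 and passed (adjusted p = 0.0266), in a fit that called 24.1% of all genes. It also passed after quantile normalisation (-0.99, adjusted p = 0.0298) and after rescaling to a common FPKM sum (-1.02, adjusted p = 0.0406), a scaling that put the median of all genes at -0.22.

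The basic helix-loop-helix factor gene hand2, needed for sympathetic neurons to become noradrenergic, was the most abundant core factor in all 12 libraries. It had 751, 1249 and 1780 FPKM (lowest, median and highest) in MYC, against 2615, 3365, 1560 and 2734 FPKM in MYCN 1, 2, 3 and 4. Only MYC 5, at 1780 FPKM, reached above a MYCN library, MYCN 3, at 1560 FPKM. In both groups it ranked above the 99.0th percentile of the table in each library. MYC minus MYCN came to -1.04 ± 0.26 on the log2 scale (SE, limma, adjusted p = 0.0184). Leaving out MYCN 1 (adjusted p = 0.0583), MYCN 2 (0.0757) or MYCN 4 (0.0652) ended the call. Against MYC 1 to 4 (-1.03, adjusted p = 0.0662) and MYC 5 to 8 (-1.04, adjusted p = 0.0830), each with 4 MYC libraries, the size was much the same and the call was not made.

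The zinc finger factors GATA2 and GATA3 act in the sympathetic lineage of mammals. Levels of gata2a were 89.9, 163 and 293 FPKM (lowest, median and highest) in MYC, against 326, 471, 326 and 348 FPKM in MYCN 1, 2, 3 and 4. No MYC library reached the lowest MYCN library, as was so for 5.6% of all genes tested. MYC differed from MYCN by -1.01 ± 0.29 on the log2 scale (SE, limma, adjusted p = 0.0353). This call lay close to the threshold. It was lost on leaving out MYCN 1, 2, 3 or 4 (adjusted p = 0.0564 to 0.119) or MYC 2, MYC 4, MYC 6 or MYC 8 (0.0547 to 0.0591), with no filter on low values (0.0509), with the replicate block (-0.81, adjusted p = 0.0502) and against MYC 1 to 4 (-0.81, adjusted p = 0.0938). Against MYC 5 to 8 it was called, at -1.22.

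For gata3 the values were 101, 134 and 226 FPKM (lowest, median and highest) in MYC, against 288, 331, 127 and 124 FPKM in MYCN 1, 2, 3 and 4. The MYCN libraries fell into a high couple, MYCN 1 and 2, and a low couple, MYCN 3 and 4, and the low couple lay inside the MYC range. The log2 fold change was -0.42 ± 0.30 and did not pass (limma, adjusted p = 0.397), and it was -0.17 without MYCN 2 and -0.64 without MYCN 4.

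The T-box factor gene tbx2b was the least abundant core factor of MYCN cells and the only one with a positive log2 fold change. It had 0.787, 6.06 and 9.87 FPKM (lowest, median and highest) in MYC, against 2.91, 5.77, 1.08 and 3.96 FPKM in MYCN 1, 2, 3 and 4. Of the MYC libraries, 4 lay above the highest MYCN library (MYC 3, 4, 5 and 6) and 1, MYC 7, below the lowest. The log2 fold change was 0.40 ± 0.51 and did not pass (limma, adjusted p = 0.657), and it was 0.08 without MYCN 3 and 0.65 without MYCN 2.

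**Figure D2:**
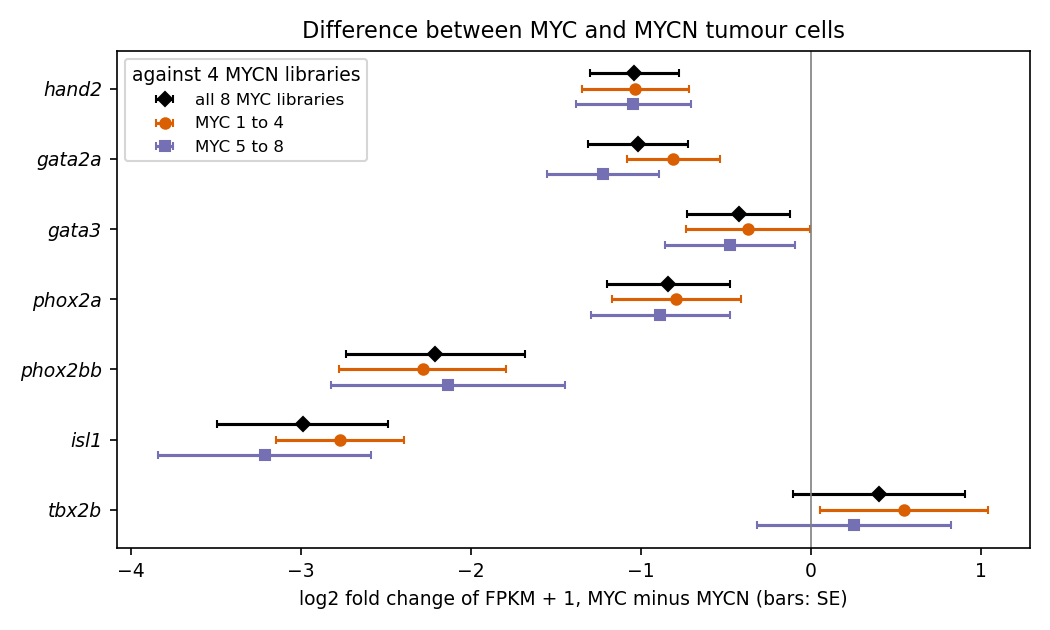
Log2 fold changes of FPKM + 1, MYC minus MYCN, with SE as bars, from all 8 MYC libraries (diamonds), MYC 1 to 4 (circles) and MYC 5 to 8 (squares), each against the 4 MYCN libraries, which all estimates share. The estimates for isl1 lie between -3.21 and -2.77, and those for gata3 between -0.47 and -0.37.

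The order of levels within a library was stable at the top and changed at the bottom. In all 12 libraries hand2 came first, and gata2a was the next in all 4 MYCN libraries and in 6 of 8 MYC libraries. The neighbours gata3 and phox2a had no stable order, with gata3 above phox2a in 4 of 8 MYC and 1 of 4 MYCN libraries. These 4 genes were above phox2bb, isl1 and tbx2b in all 12 libraries. At the low end, isl1 was above tbx2b in 3 of 8 MYC libraries and in 4 of 4 MYCN libraries. The isl1 level was 60.9% to 212% of the tbx2b level in MYC libraries (median 86.6%) and 630% to 2884% in MYCN libraries (median 1556%).

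Of the FPKM of the 7 factors together, hand2 made up 71.1% ± 6.23 in MYC (SD, n = 8) and 73.3% ± 3.10 in MYCN (SD, n = 4). The share of gata2a was 10.95% ± 3.55 in MYC and 10.93% ± 2.50 in MYCN, a smaller difference than the spread between libraries. By contrast, isl1 held 0.300% ± 0.195 in MYC and 1.33% ± 0.669 in MYCN, with no overlap between the highest MYC share, 0.556%, and the lowest MYCN share, 0.781%. The tbx2b share was 0.308% ± 0.199 in MYC and 0.0916% ± 0.0338 in MYCN, and the groups overlapped (0.0668% to 0.581% and 0.0486% to 0.124%). Each share depends on the sum, most of which was hand2.

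Ratios within a library depend little on how libraries were scaled to each other, and 3 of them were compared by exact permutation of the 12 libraries (two-sided, 495 relabellings, smallest possible p = 0.00202). These 3 pairs were chosen with earlier results of these data known, and the adjustment covers only them. Their p-values therefore overstate the support. The isl1 level was 0.0973%, 0.431% and 0.816% of the hand2 level (lowest, median and highest) in MYC, against 1.08%, 1.62% and 2.91% in MYCN. All 8 MYC libraries lay below the lowest MYCN library. On the scale of log2(FPKM + 1) this ratio differed by -1.95 between MYC and MYCN (exact p = 0.00606, 0.0152 adjusted over the 3 ratios). The change of isl1 was thus larger than that of hand2 within the same libraries.

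Of the paralogues phox2a and phox2bb, phox2bb stood at 3.05%, 5.14% and 10.6% of phox2a (lowest, median and highest) in MYC, against 5.66%, 22.1% and 24.0% in MYCN. The lowest MYCN value was MYCN 4, and 3 MYC libraries lay above it. The difference was -1.37 (exact permutation p = 0.0101, 0.0152 adjusted over the 3 ratios), with exact p = 0.0857 against either MYC set alone, where 4 libraries face 4. For gata2a relative to gata3 the values were 70.1%, 125% and 189% in MYC, against 113%, 199% and 281% in MYCN, and the difference of -0.59 did not pass (exact permutation p = 0.0808). That exact p was 0.0242 without MYCN 1 and 0.0394 without MYC 3.

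**Figure D3:**
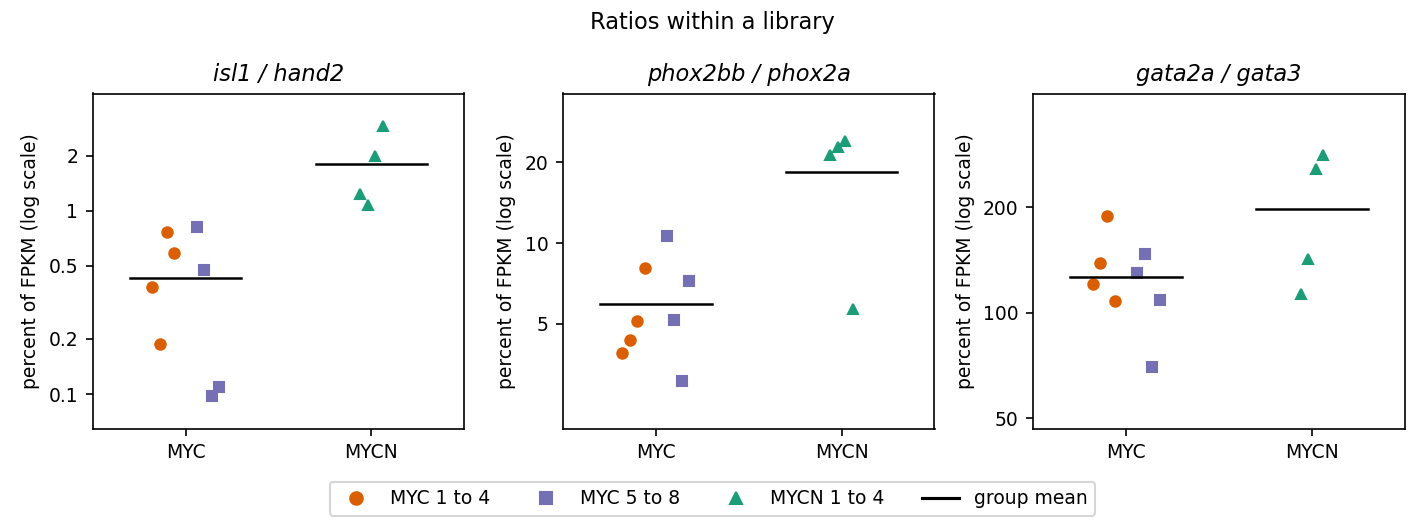
Level of isl1 as a percentage of hand2, phox2bb of phox2a and gata2a of gata3 in each library (log axes), MYC left and MYCN right, with arithmetic group means as lines. The isl1 percentages do not overlap between the groups, 0.816% at most in MYC and 1.08% at least in MYCN, while MYCN 4 lies among the MYC libraries for phox2bb.

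In each genotype a few libraries were extreme across most factors at once, while others went in different directions by factor. In MYC 3, for example, isl1 lay above the MYC mean (0.71 on the log2 scale) and phox2bb below it (-0.73). In MYC the highest library was MYC 5 for 6 of the 7 factors and the lowest was MYC 7 for 6 of the 7. In MYCN the highest was MYCN 2 for 6 factors and the lowest MYCN 3 for 5. The summed FPKM was 1020232 in MYC 5 and 782247 in MYC 7. The part of depth and scaling in these deviations was not tested, although the correlations below were also computed at a common FPKM sum. With MYC 5 and MYC 7 both left out, an alternative chosen after seeing the data, the same 4 factors were called lower in MYC, with a log2 fold change of -2.97 for isl1 and -2.25 for phox2bb.

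The spread within a genotype differed by factor. In MYC the SD of log2(FPKM + 1) was 1.04 for isl1, 1.02 for tbx2b and 0.93 for phox2bb, larger than for 95.2%, 94.8% and 92.7% of the genes tested. For hand2 it was 0.38, larger than for 35.1% of genes. Means in MYC were 5.60, 5.48 and 9.27 FPKM for isl1, tbx2b and phox2bb and 1242 FPKM for hand2. The genes compared were not matched for level, and the part of level in these spreads was not tested. In MYCN the SD was 1.11 for phox2bb, larger than for 97.1% of genes, and 0.25 for gata2a, larger than for 23.5%.

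Over the 8 MYC libraries the 21 pairs of factors all had positive Pearson correlations of log2(FPKM + 1), between 0.246 and 0.905, and the same libraries enter every pair. Exact permutation of the pairings, adjusted over the 21 pairs, called 2 of them. The permutation takes the 8 libraries as exchangeable, which the labels do not establish. Deviations were shared between MYC and MYCN libraries of the same replicate number, so libraries may not be independent and these p-values may overstate the support. For isl1 and tbx2b, r was 0.905 (exact p = 0.00193, adjusted p = 0.0318) and Spearman's rho 0.857 (exact p = 0.0107, adjusted p = 0.152). Without MYC 5 and MYC 7, the libraries farthest from the median, r was 0.853. For phox2a and phox2bb, r was 0.853 (exact p = 0.00303, adjusted p = 0.0318) and rho 0.810 (exact p = 0.0218, adjusted p = 0.152), and r was 0.677 without MYC 5 and MYC 7. By rank no pair passed the adjustment. At a common FPKM sum exact permutation again called 2 of the 21 pairs. They were isl1 and tbx2b (r = 0.914, adjusted p = 0.0396) and phox2a and phox2bb (r = 0.874, adjusted p = 0.0430). The 2 libraries farthest from the median of the first gene of a pair were MYC 5 and MYC 7 for 17 pairs, of which 9 had a negative r without them, and MYC 1 and MYC 5 for 4 pairs, all with a negative r without them. Leaving out extreme libraries tends to lower r, and the shared direction of these 13 pairs was not seen in the other 6 libraries. The pair hand2 and phox2bb had r = 0.889 (exact p = 0.00742, adjusted p = 0.0519; rho 0.667, exact p = 0.0831, adjusted p = 0.249), and 0.512 without MYC 5 and MYC 7. Within MYC, isl1 and tbx2b thus moved together, although between the genotypes isl1 fell and tbx2b had a positive fold change that did not pass.

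**Figure D4:**
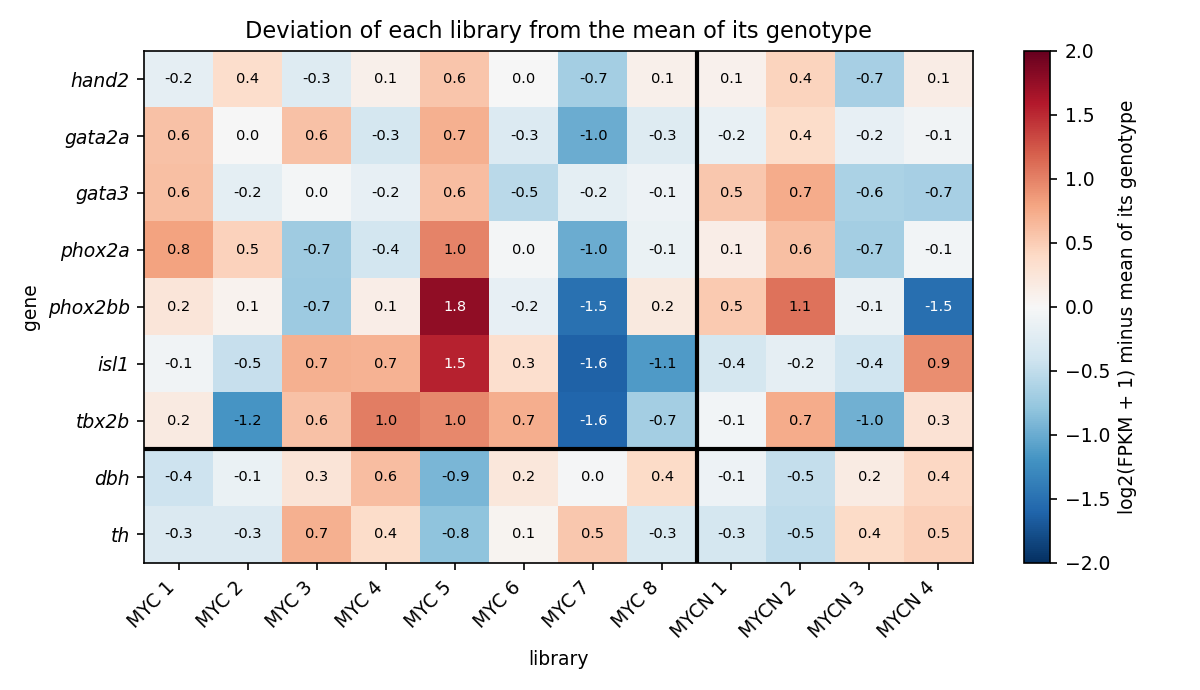
Deviation of log2(FPKM + 1) of each library from the mean of its genotype, for the 7 core factors and, under the line, dbh and th, with MYC libraries left of the vertical line and MYCN libraries right of it. MYC 5 is above the MYC mean for all 7 factors and below it for dbh and th, and MYC 7 is below the mean for all 7 factors.

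None of the 7 factors differed between MYC 5 to 8 and MYC 1 to 4 in limma (0 also at an unadjusted p under 0.05). Of all genes tested, 0.552% were called after adjustment and 9.14% were under 0.05 unadjusted. With only 7 factors, counts of 0 are near these shares. The log2 fold changes, MYC 5 to 8 minus MYC 1 to 4, ran from -0.44 ± 0.59 for isl1 (adjusted p = 0.949) to 0.15 ± 0.63 for phox2bb (adjusted p = 0.982). Single libraries moved them widely: with 1 library left out, isl1 ranged from -1.03 to 0.02 and phox2bb from -0.42 to 0.67, and gata2a, at -0.41, was -0.72 without MYC 5, under 0.05 before adjustment but not after it (limma, adjusted p = 0.497). Means of isl1 were 5.60 ± 6.35 FPKM in MYC 5 to 8 and 5.60 ± 2.49 FPKM in MYC 1 to 4 (SD, n = 4 each).

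Of 16 tested noradrenergic transcription factors outside the 7, 6 fell, 1 rose and 9 did not pass, with a median log2 fold change of -0.75. Over all genes tested 7.63% fell and 5.77% rose, the shares to set beside this and the later list counts. The proneural factor gene ascl1a had 7.55, 6.35 and 2.86 FPKM in MYC 2, 3 and 4 and 0.126 to 0.646 FPKM in the other 5 MYC libraries, against 41.3, 108, 39.5 and 65.3 FPKM in MYCN 1, 2, 3 and 4 (log2 fold change -4.68 ± 0.59, limma, adjusted p = 0.000202). The LIM-only gene lmo1, a neuroblastoma susceptibility gene in humans, fell to 52.5 ± 34.1 FPKM in MYC, against 256 ± 107 FPKM in MYCN (-2.44 ± 0.48, limma, adjusted p = 0.00430). The gene sox11b, a factor of immature neurons, fell by 1.80, and the homeodomain cofactor gene meis2a rose by 2.44 on the log2 scale (limma, adjusted p = 0.00323 and 0.00284).

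Of 16 tested partner genes, whose proteins bind LIM, GATA or bHLH factors or act at their enhancers, 3 fell, none rose and 13 did not pass in limma (7 lower and 1 higher at an unadjusted p under 0.05). Of all genes tested, 7.63% fell. All 3 were LIM-only genes, lmo1, lmo3 (-1.75 ± 0.53, adjusted p = 0.0414) and lmo4a (-1.68 ± 0.43, adjusted p = 0.0200), while ssbp3b, of a family that binds the LIM cofactor Ldb, missed the threshold (-0.88 ± 0.29, adjusted p = 0.0596). The gene lmo1 is on both lists and was also counted among the noradrenergic factors above. Levels of lmo4a were low, at 0.696 ± 1.25 FPKM in MYC and 4.33 ± 3.10 FPKM in MYCN (SD). For lmo3 and lmo4a the groups overlapped. The cofactor gene ldb1b was listed at 0 in all 12 libraries, which need not mean that it was not expressed.

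Of 8 measured paralogues of the core factors, 5 were under 1 FPKM in all libraries, namely phox2ba, gata2b, tbx3a, isl2a and isl2b. The highest value in any library was 0.130 FPKM for phox2ba, 0.953 for gata2b, 0.308 for isl2a and 0.0212 for isl2b. Levels of tbx2a reached 1.01 FPKM in MYCN 4, with 0 in MYCN 3 and at most 0.0948 FPKM in MYC. None of these genes passed the filter. The paralogue isl1l, also known as isl1b and named after its values were seen, had 0 to 0.282 FPKM in MYC and 0.751 to 5.66 FPKM in MYCN. It was below the filter and not tested. Every MYC library lay below every MYCN library, as was so for 5.6% of the genes tested. The only tested gene of this list was gata1a, at 0.963 ± 0.683 FPKM in MYC and 0.758 ± 0.254 FPKM in MYCN (limma, adjusted p = 0.849).

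Of 13 tested genes of catecholamine synthesis, storage and breakdown, 1 rose, none fell and 12 did not pass in limma (3 higher and 0 lower at an unadjusted p under 0.05). These counts are near the shares over all genes tested, of which 5.77% rose and 28.6% were under 0.05 unadjusted in either direction. The 1 that rose was pts, of tetrahydrobiopterin synthesis, at 5.10 ± 1.76 FPKM in MYC and 2.38 ± 0.656 FPKM in MYCN (adjusted p = 0.0469); gch1, of the same cofactor pathway, had 47.5 and 16.1 FPKM (adjusted p = 0.0861), and qdprb1 had 138 and 92.9 FPKM (adjusted p = 0.128). The log2 fold change was -0.50 ± 0.28 for dbh (adjusted p = 0.269) and -0.33 ± 0.30 for th (adjusted p = 0.510).

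Factors of the mesenchymal neuroblastoma state, the alternative to the noradrenergic state in human cell lines, were mostly low in both groups. Of 26 measured genes, 14 were under 1 FPKM in all 12 libraries, among them prrx1a, prrx1b, twist2 and yap1. Of the 7 tested none rose or fell in limma (2 higher and 1 lower at an unadjusted p under 0.05). The smallest p belonged to sox9b, with 0.946 ± 0.632 FPKM in MYC and 4.92 ± 4.29 FPKM in MYCN (adjusted p = 0.0629). The others named were smad3a (0.979 and 0.175 FPKM, adjusted p = 0.0757), the AP-1 gene fosl1a (8.04 and 2.14 FPKM, adjusted p = 0.160) and egr3 (4.37 and 0.744 FPKM, adjusted p = 0.280).

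Genes with the most similar profiles were ranked by Pearson's r of log2(FPKM + 1) over all 12 libraries, among about 6210 genes with a mean of at least 5 FPKM, and the highest of so many carry no test. For hand2 they were sox11b (r = 0.963), amer2 (0.931) and coro2a (0.929). For isl1 they were spry2 (0.946), a feedback inhibitor of receptor tyrosine kinase signalling, prox1a (0.943), a homeodomain factor, and ret (0.933), the receptor for glial-derived neurotrophic factors. For phox2a they were nono (0.977), an RNA-binding protein of paraspeckles, pxna (0.961), a paxillin of focal adhesions, and samm50l (0.959). With each genotype centred on its own mean, r was 0.974 for nono, 0.901 for sox11b with hand2 and 0.759 for ret with isl1.

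The closest genes to gata2a were clasp1a (r = 0.953), trim33 (0.941) and larp4b (0.939), and those to gata3 were galnt7 (0.889), smurf1 (0.820) and mre11a (0.816). For phox2bb they were smurf1 (0.925), which targets BMP pathway proteins for degradation, ppapdc1b (0.918) and calub (0.917). For tbx2b they were cyb5a (0.862), b3gat1a (0.817) and sh3glb1b (0.815), and none of these 3 differed between the genotypes beyond the threshold (limma, adjusted p = 0.594 to 0.993).

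Markers of other cells moved with the genotype as well. Of 14 tested macrophage markers 8 rose and none fell in limma (13 and 0 at an unadjusted p under 0.05), and the 15 measured summed to 289 to 1967 FPKM in MYC and 58.6 to 852 FPKM in MYCN, none of them at 0 in all libraries. Of 9 leukocyte markers 6 rose and none fell (8 and 0 unadjusted), with sums of 107 to 367 FPKM in MYC and 34.1 to 114 FPKM in MYCN. Of all genes tested, 5.77% rose. Macrophage sums were 289 to 424 FPKM in MYC 5 to 8 and 660 to 1967 FPKM in MYC 1 to 4. In these sets, in the same order, hand2 differed from MYCN by -1.04 and -1.03 (called in neither), gata2a by -1.22 and -0.81 (called in MYC 5 to 8), phox2bb by -2.13 and -2.28 (called in MYC 1 to 4) and isl1 by -3.21 and -2.77 (called in both). The highest MYCN sum, 852 FPKM, was that of MYCN 3, which was lowest for 5 of the 7 factors. Without MYCN 3, hand2, phox2bb and isl1 were called and gata2a was not (limma, adjusted p = 0.0564). Much of that sum was 1 gene, cd74a, which reached 549 FPKM in MYCN and 885 FPKM in MYC and was not called (limma, adjusted p = 0.140). By contrast, c1qa, c1qb and c1qc, all called, reached at most 6.21, 14.6 and 28.6 FPKM in MYCN.

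Some core factors also mark other lineages, so those markers were read too. For motor neurons, which express ISL1, all 6 markers were under 1 FPKM in all libraries, with sums of 0.0883 to 0.585 FPKM in MYC and 0.0342 to 0.222 FPKM in MYCN and lhx3 listed at 0 throughout. For endothelium, which expresses GATA2, 8 of 11 markers were under 1 FPKM in all libraries, kdrl and cdh5 among them, with sums of 4.01 to 9.33 FPKM in MYC and 1.76 to 3.84 FPKM in MYCN, and 1 of 2 tested rose. The gene that rose, fli1b, was at most 0.729 FPKM in MYCN. It passed the filter through MYC libraries alone, so its direction carries little weight. T cell markers, of cells that express GATA3, summed to 2.98 to 30.3 FPKM in MYC and 9.99 to 33.5 FPKM in MYCN, and 1 of 4 tested fell. That gene was il7r, at means of 1.76 FPKM in MYC and 11.9 FPKM in MYCN (limma, adjusted p = 0.0126). Means of cd4 and zap70 (not called) and of cd8a, lck and runx3 (not tested) were higher in MYC. Those of cd247l (not called) and tcf7 (not tested) were lower in MYC. Erythroid markers summed to 51.7 to 1264 FPKM in MYC and 307 to 645 FPKM in MYCN, with none of 7 called in limma (0 also unadjusted).

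Of 10 glial markers 8 were under 1 FPKM in all libraries, sox10 and foxd3 among them, with sums of 19.4 to 61.9 FPKM in MYC and 12.14 to 32.5 FPKM in MYCN. The myelin gene mbpb rose, at a mean of 36.9 FPKM in MYC and 13.1 FPKM in MYCN (limma, adjusted p = 0.0157), the 1 of 2 tested that did. Steroidogenic interrenal markers summed to 5.995 to 53.6 FPKM in MYC and 11.01 to 19.2 FPKM in MYCN (0 of 4 called in limma, 2 higher unadjusted), with star at up to 32.3 FPKM in MYC and 10.2 FPKM in MYCN. Those of kidney tubule summed to 2.34 to 9.23 FPKM in MYC and 5.49 to 12.4 FPKM in MYCN (1 of 3 fell). Those of fibroblasts summed to 0.476 to 4.19 FPKM in MYC and 3.60 to 7.14 FPKM in MYCN. The 1 fibroblast gene tested, col1a1b, fell, at 0.171 to 1.70 FPKM in MYC and 2.52 to 4.13 FPKM in MYCN. The MYCN libraries alone were enough for it to pass the filter, so its direction carries little weight. The part of these cells in the differences of the core factors was not tested.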

How the data were processed

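RNA of sorted EGFP-positive tumour cells was sequenced from both fragment ends after ribosomal RNA removal, per the labels' protocols. The deposited table holds 1 FPKM value per gene and library, computed by the authors with cutadapt, TopHat2 2.0.11 and Cufflinks 2.2.1, per the submitters' processing notes. The genome build, annotation, strand and handling of reads shared by paralogues are not given in the sources used here, so values of close paralogues are uncertain. FPKM gives no read depth, so no counting interval was computed, and the spread of replicate libraries sets the precision.

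The 9606 genes that reached 1 FPKM in 4 or more of the 12 libraries were fitted as log2(FPKM + 1) with limma 3.58.1 in R 4.3.3 (two-sided, MYC minus MYCN, eBayes with trend, Benjamini-Hochberg over all genes tested, threshold 0.05). Fold changes are on this scale and understate those of low genes. A gene that reached 1 FPKM in only 1 group could pass this filter, and its direction is then partly set by the filter. In simulated data with 200 of 9606 genes changed by 2 on the log2 scale, the fit called 92% of them, and 7.54% of its calls were false. The changed genes were drawn only from the more abundant genes. Noise was normal and independent between libraries, with no difference between the MYC sets. Smaller changes, such as those of hand2 and gata2a, and changes in low genes such as tbx2b were not simulated. Ratios and correlations used exact permutation in Python 3.11.15. The members, gene lists and ratio pairs were chosen with earlier results of these data known. The named genes are the members, the 4 genes of each list with the smallest p, some paralogues, ascl1a, dbh and th, and the 3 genes most like each member.

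For replicates 1 to 4, deviations from the group mean correlated between MYCN and MYC libraries of the same number at 0.249, 0.379, 0.534 and 0.148 across genes, all above the limit of 0.1, so the fit with the number as a block is given beside the results it changes, while the unpaired fit over all 12 libraries stayed the main one. Among MYC 1 to 4, MYCN 1, 2 and 3 correlated most with the library of their own number, but MYCN 4 correlated most with MYC 3. The labels do not say what the replicate numbers stand for, so the pairing is uncertain. Alternatives covered the pseudocount, filter, scaling, weights, trend, replicate block, MYC sets and each library left out.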

Additional observations from a re-analysis of the deposited data

Results flagged for a closer look

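In 3 of 14 groups of values (7 factors in 2 genotypes), 1 library stood far from the rest by Dixon's criterion. The criterion was applied to FPKM, not to the log scale of the tests. Chance meets it in about 1 of 20 groups only where values are normally distributed, which was not checked. The 3 flags therefore do not show more outlying libraries than chance would give. Among the MYC libraries phox2bb was 27.8 FPKM in MYC 5, with the next at 8.97 FPKM. Among the MYCN libraries isl1 was 79.5 FPKM in MYCN 4, with the next at 36.3 FPKM, and gata2a was 471 FPKM in MYCN 2, with the next at 348 FPKM. Without MYC 5 phox2bb was called at -2.46, and without MYCN 4 isl1 was called at -2.68. Without MYCN 2 gata2a was not called (-0.89, limma, adjusted p = 0.119).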

How the results depend on the processing

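The log2 fold changes of all 7 factors, MYC minus MYCN, kept their sign under every alternative run, and isl1 was called under all of them (-3.33 to -2.68). Apart from fits that left out 1 library, hand2 lost its call against MYC 1 to 4 (-1.03) and MYC 5 to 8 (-1.04). The call of phox2bb ended against MYC 5 to 8 (-2.13). That of gata2a ended against MYC 1 to 4 (-0.81), with the replicate block (-0.81) and without a filter (-1.01). With 1 library left out, hand2 lost its call without MYCN 1, 2 or 4, and phox2bb without MYCN 1 or 2. For gata2a the call ended without MYCN 1, 2, 3 or 4 or MYC 2, 4, 6 or 8. The call of phox2a was gained with the replicate block (-0.79), quantile normalisation (-0.99) and a common FPKM sum (-1.02). The block changed no other member's call, and raised the calls over all genes to 2251 of 9334, against 1287 of 9606. With 1 library left out, hand2 ranged from -1.26 to -0.89, gata2a from -1.11 to -0.87, phox2bb from -2.71 to -1.84, phox2a from -1.07 to -0.63, gata3 from -0.64 to -0.17, tbx2b from 0.08 to 0.65, and the gata2a to gata3 ratio from -0.83 to -0.39. The ratio of phox2bb to phox2a was -1.49 with MYC 1 to 4 alone and -1.25 with MYC 5 to 8 alone, and did not pass there. The count of factors lower in MYC was 2 against either MYC set and ranged from 1 to 4 with 1 library left out. Leaving out 1 library gave 656 (without MYCN 4) to 1352 calls over all genes, library weights 1978, MYC 1 to 4 alone 891 and MYC 5 to 8 alone 847. Apart from the weighted fit, these fits also had fewer libraries, and the cause of the different numbers of calls was not tested. The pair hand2 and phox2bb passed with a pseudocount of 0.1 (r = 0.898) and centred on set means (r = 0.893). At a common FPKM sum its r was lower and it did not pass (r = 0.774, exact permutation, adjusted p = 0.159). With 4 MYCN libraries and unknown depth, the difference of gata3 (-0.42 ± 0.30, SE) did not stand out from its spread. Which sizes of difference could be detected was not tested at this level.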

Other observations

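The relation of the core factors to the enzymes of noradrenaline synthesis was looked at after the values were seen. Over the 8 MYC libraries, the 14 Pearson correlations of the 7 factors with dbh and th were all negative, from -0.907 to -0.0188, and 2 passed exact permutation adjusted over the 14. Here too the permutation takes the 8 libraries as exchangeable, which the labels do not establish. For phox2a and th, r was -0.907 (exact p = 0.00288, adjusted p = 0.0356; Spearman's rho -0.810, exact p = 0.0218, adjusted p = 0.152), and -0.832 without MYC 5 and MYC 7. For phox2bb and th, r was -0.854 (exact p = 0.00508, adjusted p = 0.0356; rho -0.810, exact p = 0.0218, adjusted p = 0.152), and -0.801 without them. After rescaling each library to a common FPKM sum they were -0.693 and -0.505 and neither was called (adjusted p = 0.848 and 0.990, exact permutation), so the calls depend on the scaling. The direction was not general: without the 2 libraries farthest from each factor's median 7 of the 14 correlations were positive (isl1 and th at 0.834), and at a common FPKM sum 6 of the 14 were. MYC 5 had the highest phox2a (262 FPKM) and the lowest th (281 FPKM) and dbh (917 FPKM) of the MYC libraries.

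Among the MYCN libraries, MYCN 4 had the lowest phox2bb (12.8 FPKM) and the highest isl1 (79.5 FPKM), dbh (3237 FPKM) and th (859 FPKM), and MYCN 2 had the highest phox2bb (81.8 FPKM) and the lowest dbh (1753 FPKM) and th (434 FPKM). With 4 libraries no correlation was computed.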
